A study of Gossypium hirsutum with 16 samples.

Results

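Control shoot apices of a short-branch and a nulliplex-branch strain of upland cotton (Gossypium hirsutum) were compared, with 4 libraries a strain. These are 8 of the 16 libraries of the series, chosen by strain and by the control label alone. The short-branch strain is Jinxian-short branch, called JX here, and its control libraries (titles JXc) carry the phenotype short fruit branch. The nulliplex-branch strain is 3798 (titles 3798c). Both were sampled as seedlings at the shoot tip. The other 8 libraries come from plants of the same strains in which GhBRC1 was silenced by a virus-induced method (VIGS), and they serve here only as a side measurement. In virus-induced silencing a plant virus carrying a stretch of the target gene makes the plant degrade its own transcript. The labels say neither what the control plants received in its place nor whether the 4 libraries of a strain came from separate plants. The p-values therefore measure the spread between libraries, which may be technical.

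Cotton forms its flowers on fruiting branches, which arise from axillary buds and grow in a sympodial way: each unit ends in a flower and growth passes to the next bud. In a nulliplex plant the flower sits in the leaf axil of the main stem without an elongated branch, whereas a short-branch plant makes fruiting branches with short internodes. The balance between continued growth and flowering of a shoot meristem is set in many plants by the TERMINAL FLOWER 1 and FLOWERING LOCUS T family, and bud outgrowth is restrained by the TCP transcription factor BRC1. The comparison asks which transcripts differ between control apices of a short-branch and a nulliplex-branch strain. Since each branch type is represented by a single strain, branch type cannot be told apart from any other difference between the strains.

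Values were deposited as FPKM (fragments of a gene, scaled by its length and by the mapped total of the library) for 70422 gene IDs, of which 51936 had at least 0.5 FPKM in at least 4 of the 8 control libraries and were tested. The IDs carry a chromosome and a running number, or the words newGene or Contig. Since 0 of them matched the RefSeq gene table, no gene names or functions can be given, the labelled tissue could not be checked by marker genes, and GhBRC1 itself was not analysed here. Total FPKM was 575652 to 583908 in the JX controls and 552185 to 568186 in the 3798 controls. The 10 most abundant IDs held 2.07% to 2.33% of the total in JX and 2.54% to 3.396% in 3798. Relative sequencing depth was 0.909 to 1.17 in JX and 1 to 1.09 in 3798, with 3798 control 1 set to 1. Absolute depth is unknown. IDs listed at 0 averaged 8326 ± 469 in JX and 8305 ± 228 in 3798 (SD, n = 4; exact two-sided permutation test, p = 0.97). IDs at 0.5 FPKM or more averaged 51498 ± 107 in JX and 51250 ± 338 in 3798 (SD, n = 4; exact permutation test, p = 0.20, adjusted p = 0.40 over both measures).

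The library 3798 control 3 resembled the JX controls more than the other controls of its own strain. The first principal component of the 8 controls took 59.9% of the variance. On it the JX controls had scores of 49.6 to 66.9. The 3798 controls 1, 2 and 4 scored -88.8 to -84.3, and 3798 control 3 scored 21.1. Across tested IDs its log2 levels correlated on average at 0.959 with those of the JX libraries and at 0.924 with those of the other 3798 libraries. Each JX control correlated on average at 0.964 to 0.967 with the other JX controls, and 3798 controls 1, 2 and 4 at 0.965 to 0.967 with each other. Whether the label of 3798 control 3 is right cannot be settled from these values. Results are given with this library and without it, unless the sentence names 1 set of libraries only. It was left out for its likeness to JX, so the larger counts and smaller p-values without it follow in part from that choice.

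**Figure D1:**
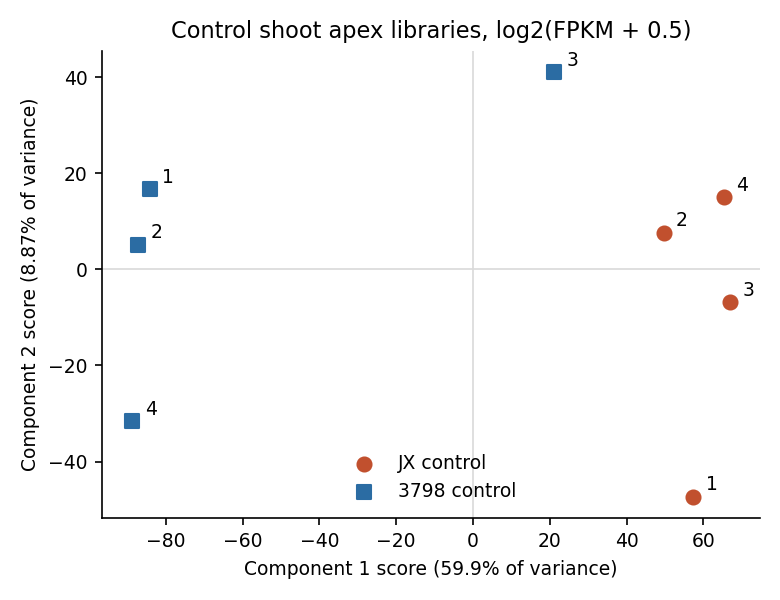
Scores of the 8 control libraries on the first 2 principal components of log2(FPKM + 0.5) over 51936 IDs, with circles for JX, squares for 3798 and replicate numbers beside the points. The first component (59.9% of the variance) separates the JX controls from 3798 controls 1, 2 and 4, and 3798 control 3 lies on the JX side at 21.1.

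Over all 8 libraries, 14014 of 51936 IDs (27.0%) differed between the strains by limma at an adjusted p under 0.05. Of these, 8478 (16.3% of IDs) were higher and 5536 (10.7%) lower in JX. The libraries of the strains did not overlap for 26.2% of IDs. The differences were mostly small: 2975 called IDs (5.73%) differed at least 2-fold, 286 at least 4-fold and 10 at least 8-fold. In such whole-apex samples a lower level can mean fewer cells of a kind or less RNA per cell, and these cannot be told apart. Median-ratio scaling moved the median log2 difference from 0.037 to -0.0071 and the calls to 7732 higher and 6432 lower, and quantile normalization gave 7372 and 6784. The count also rested on single libraries. It was 6359, 6498 or 7552 without 3798 control 1, 2 or 4, 21799 without 3798 control 3, and 8838, 10650, 7785 or 7922 without JX control 1, 2, 3 or 4. At an adjusted p under 0.01 limma called 4 IDs (0.00770%).

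Those 4 IDs lead the comparison in each direction. They were chosen by small p over 8 libraries and by lack of overlap. The place of 3798 control 3 near its strain in them therefore follows in part from the choice. Gh_Contig00435G000100, on an unplaced contig, was at 6.25, 6.71, 8.01 and 7.32 FPKM in JX controls 1 to 4, against 1.61, 2.03, 1.65 and 1.27 FPKM in 3798 controls 1 to 4. All 4 JX values lay above all 4 of 3798, and 3798 control 3 lay among the others of its strain. The log2 difference on the log2(FPKM + 0.5) scale, which understates differences of low IDs, was 1.83 over 8 libraries (SE 0.139, limma adjusted p = 0.0079) and 1.83 without 3798 control 3 (SE 0.147, limma adjusted p = 2.0e-05). Gh_A03G241400, on chromosome A03, was at 25.4, 26.5, 30.9 and 27.6 FPKM in JX, against 11.9, 8.89, 10.8 and 10.9 FPKM in 3798. Again 3798 control 3 stood within its own strain, and the log2 difference was 1.34 over 8 libraries (SE 0.108, limma adjusted p = 0.0079) and 1.35 without it (SE 0.111, limma adjusted p = 2.3e-05).

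The other 2 IDs were lower in JX. Gh_A02G041300, on chromosome A02, was at 6.07, 6.08, 4.43 and 4.21 FPKM in JX, against 35.6, 32.1, 18.6 and 30.7 FPKM in 3798. Here 3798 control 3 was the lowest of its strain but still far above JX. The log2 difference was -2.36 over 8 libraries (SE 0.204, limma adjusted p = 0.0097) and -2.56 without it (SE 0.138, limma adjusted p = 3.7e-06). Gh_A08G276500, on chromosome A08, was at 3.02, 3.06, 2.87 and 2.82 FPKM in JX, against 10.04, 9.78, 6.90 and 8.58 FPKM in 3798. It differed by -1.42 on the log2 scale over 8 libraries (SE 0.127, limma adjusted p = 0.0099) and by -1.53 without 3798 control 3 (SE 0.101, limma adjusted p = 7.8e-06). The JX values of this ID spanned a narrow range, and the strains did not overlap.

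Without 3798 control 3, 21799 of the 51936 IDs (42.0%) differed, 13042 (25.1%) higher and 8757 (16.9%) lower in JX. At an adjusted p under 0.01 limma called 14197 IDs (27.3%), and the libraries of the strains did not overlap for 47.2% of IDs. With median-ratio scaling the split was 11369 higher and 10515 lower, and with quantile normalization 10975 and 10952. Of the 14014 calls over 8 libraries, 13898 (99.2%) were also made without this library, each in the same direction, and they made up 63.8% of the calls without it. The median spread of an ID within a group, as an SD of log2 levels, was 0.169 in the JX controls and 0.231 in the 3798 controls, or 0.157 in 3798 controls 1, 2 and 4. The median size of the difference, as an absolute log2, was 0.336 without 3798 control 3 and 0.285 with it.

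In the IDs that lead without this library, it stood away from the rest of its strain. Gh_D08G209200, on chromosome D08, was at 50.2, 49.5, 51.1 and 48.4 FPKM in JX, against 7.29, 6.52 and 6.96 FPKM in 3798 controls 1, 2 and 4. In 3798 control 3 it was at 37.0 FPKM. The log2 difference was 2.76 without that library (SE 0.072, limma adjusted p = 4.0e-07) and 2.18 with it (SE 0.482, limma adjusted p = 0.015). Gh_A09G105900, on chromosome A09, was at 184, 158, 211 and 185 FPKM in JX, against 21.4, 23.1 and 21.5 FPKM in 3798 controls 1, 2 and 4. At 129 FPKM in 3798 control 3, it too was nearer to JX. Its log2 difference was 3.03 without that library (SE 0.102, limma adjusted p = 1.8e-06) and 2.40 with it (SE 0.524, limma adjusted p = 0.014).

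Among IDs lower in JX, Gh_D09G100800, on chromosome D09, had the smallest p of all. It was at 2.17, 3.02, 3.14 and 2.78 FPKM in JX, against 117, 144 and 140 FPKM in 3798 controls 1, 2 and 4, and at 6.81 FPKM in 3798 control 3. Thus a transcript among the more abundant of the apex in 3798 controls 1, 2 and 4 was at a low level in the JX libraries and in 3798 control 3. The log2 difference was -5.36 without that library (SE 0.125, limma adjusted p = 2.9e-07) and -4.31 with it (SE 0.885, limma adjusted p = 0.013). Gh_A05G248600 of chromosome A05 was at 8.66, 8.98, 8.81 and 7.18 FPKM in JX, against 48.7, 49.6 and 46.3 FPKM in 3798 controls 1, 2 and 4, and at 15.02 FPKM in 3798 control 3. Its log2 difference was -2.46 (SE 0.092, limma adjusted p = 2.2e-06) and, with all 8 libraries, -2.04 (SE 0.344, limma adjusted p = 0.010).

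**Figure D2:**
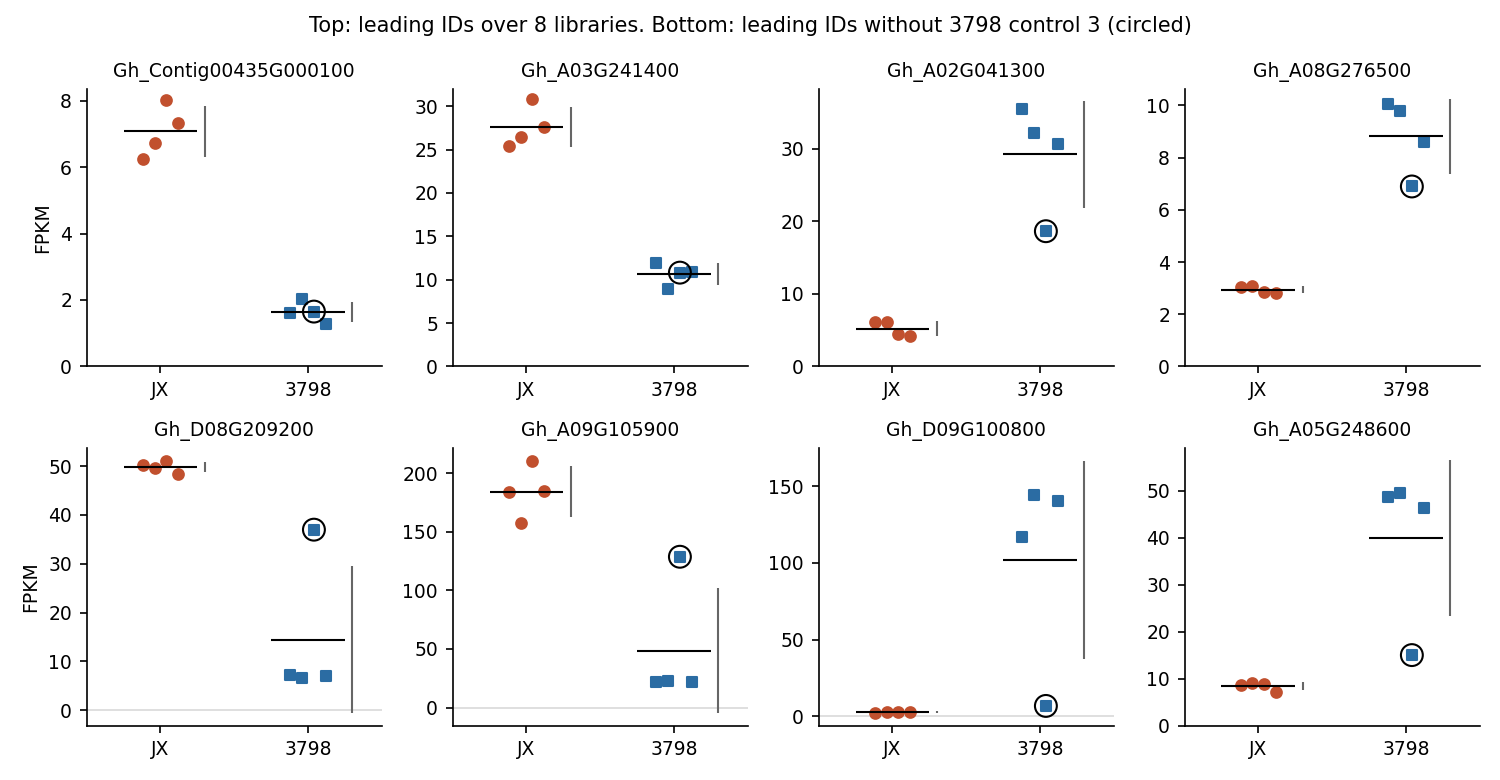
FPKM of the 8 leading IDs in each control library, JX left and 3798 right. Horizontal lines are group means, vertical lines the mean ± SD over 4 libraries, and the circle marks 3798 control 3. In the upper row the circled library stands with or near its strain (10.8 FPKM for Gh_A03G241400), and in the lower row it stands toward JX (37.0 FPKM for Gh_D08G209200). The upper IDs were chosen with that library in the fit, so its place there follows in part from the choice.

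Differences of at least 2-fold were more often toward higher levels in JX. Over 8 libraries 2026 called IDs were at least 2-fold higher and 949 at least 2-fold lower. Without 3798 control 3 these were 3271 and 1601, together 9.38% of IDs. At a minimum of 4-fold, 173 were higher and 113 lower over 8 libraries, and 550 and 236 without 3798 control 3. At a minimum of 8-fold the numbers were 3 and 7 over 8 libraries, and 48 and 38 without it. The excess of higher over lower calls at 2-fold was smaller but kept its direction with quantile normalization, at 1746 and 1103 over 8 libraries and 2698 and 1969 without 3798 control 3.

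**Figure D3:**
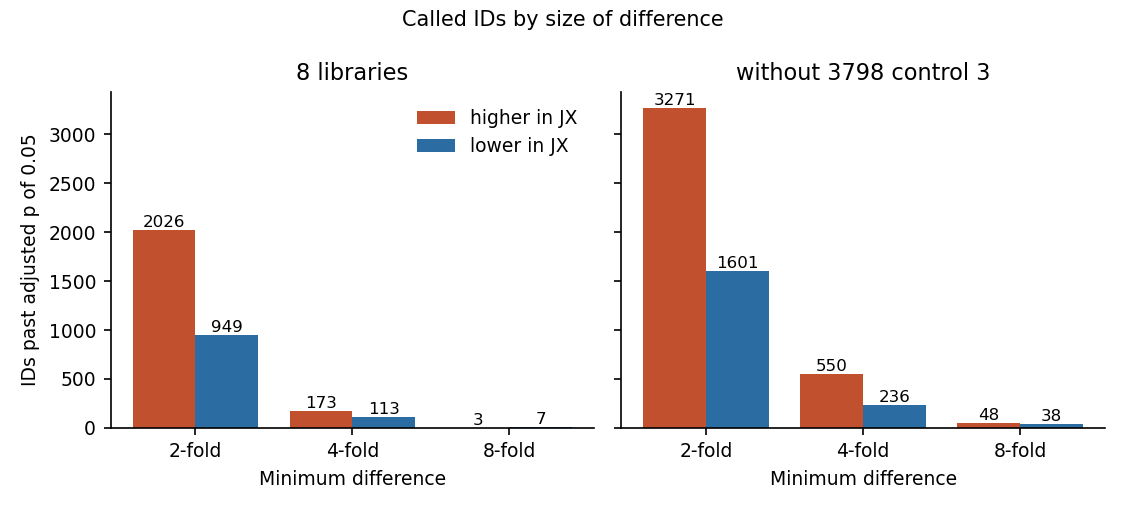
Number of IDs past a limma adjusted p of 0.05 that differ by at least 2-, 4- or 8-fold on the log2(FPKM + 0.5) scale, for higher and lower in JX. The left panel uses all 8 control libraries (2026 and 949 at 2-fold) and the right panel leaves out 3798 control 3 (3271 and 1601).

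No ID was switched between the strains. An ID was counted as switched if each library of one strain had at least 1 FPKM and even the lowest of them was over 8-fold above each library of the other strain. This held for 0 of 70422 IDs over the 8 libraries, and with a ratio of 4-fold for 1 ID on in JX and 2 on in 3798. Without 3798 control 3 there were 46 such IDs (0.0653%), 21 on in JX and 25 on in 3798. With a ratio of 4-fold and without that library the numbers were 397 on in JX and 138 on in 3798, so both the count and its balance depend on the ratio. The level in 3798 control 3 lay between the ranges of the groups in 13 of the 21 and 18 of the 25. On the log2(FPKM + 0.5) scale, from the mean of 3798 controls 1, 2 and 4 (0%) to the mean of JX (100%), it stood at a median of 84.4% in the 21 and of 80.8% in the 25. In the silenced libraries, the 21 IDs on in JX had a median level of 0.796 FPKM in JX and 0.617 FPKM in 3798, and the 25 on in 3798 had 1.35 FPKM in JX and 2.95 FPKM in 3798.

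Values of 4 of these 46 IDs are given, a choice made after their values were seen. Gh_D01G082700, on chromosome D01, was at 11.8, 14.2, 20.5 and 14.6 FPKM in JX, against 0.482, 0.307 and 0 FPKM in 3798 controls 1, 2 and 4, and at 8.76 FPKM in 3798 control 3. Gh_D03G181600, on chromosome D03, was at 8.28, 9.14, 10.8 and 9.67 FPKM in JX, against 0.512, 0.379 and 0.433 FPKM in 3798 controls 1, 2 and 4, and at 5.26 FPKM in 3798 control 3. Both were all but silent in 3 libraries of 3798 and clearly present in the remaining one. Gh_A07G008900, on chromosome A07, was at 0.185, 0.402, 0.776 and 0.823 FPKM in JX, against 26.6, 26.8 and 31.1 FPKM in 3798 controls 1, 2 and 4, and at 2.48 FPKM in 3798 control 3. Gh_A09G106600, on chromosome A09, was at 1.20, 3.22, 3.48 and 3.15 FPKM in JX, against 51.8, 73.9 and 105 FPKM in 3798 controls 1, 2 and 4, and at 5.13 FPKM in 3798 control 3. The last 2 IDs show the reverse, present in the same 3 libraries of 3798 and low in the other one and in JX.

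The place of 3798 control 3 was measured over the 4872 IDs that differed at least 2-fold without it, on the same scale. Its own values did not enter that difference, but its likeness to JX was the reason for leaving it out. Its values also counted in the filter on low values, which 69 of these IDs passed only through it. It stood at a median of 74.7% of the way from the other 3798 controls to JX (quartiles 62.5% and 86.5%), and nearer to JX in 4317 IDs (88.6%). Over the other 4803 IDs the median was 74.7% and it was nearer to JX in 88.8%. For IDs higher in JX the median was 75.9%, and for IDs lower in JX 70.8%. Its level fell within the JX range in 1471 IDs (30.2%), within the range of 3798 controls 1, 2 and 4 in 135 (2.77%), and between the ranges in 3154 (64.7%). It was under 25% of the way in 127 IDs (2.61%) and over 75% in 2404 (49.3%). These IDs were chosen for large differences between the other controls, so a library outside that fit tends to fall inside both ends. No JX library was left out and placed the same way. These values therefore cannot tell an intermediate library from one like JX.

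The silenced libraries, which had no part in choosing these IDs, were spread along the same axis. The 4 JX silenced libraries had medians of 39.5%, 36.9%, 19.7% and 71.4% of the way to the JX controls, in the order of their replicate numbers. The 3798 silenced libraries had medians of 3.41%, 16.8%, 17.8% and 54.2%. Library 4 of each strain was the one nearest to the JX controls, and by these medians JX silenced 1 to 3 were nearer to 3798 controls 1, 2 and 4 than to the controls of their own strain.

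**Figure D4:**
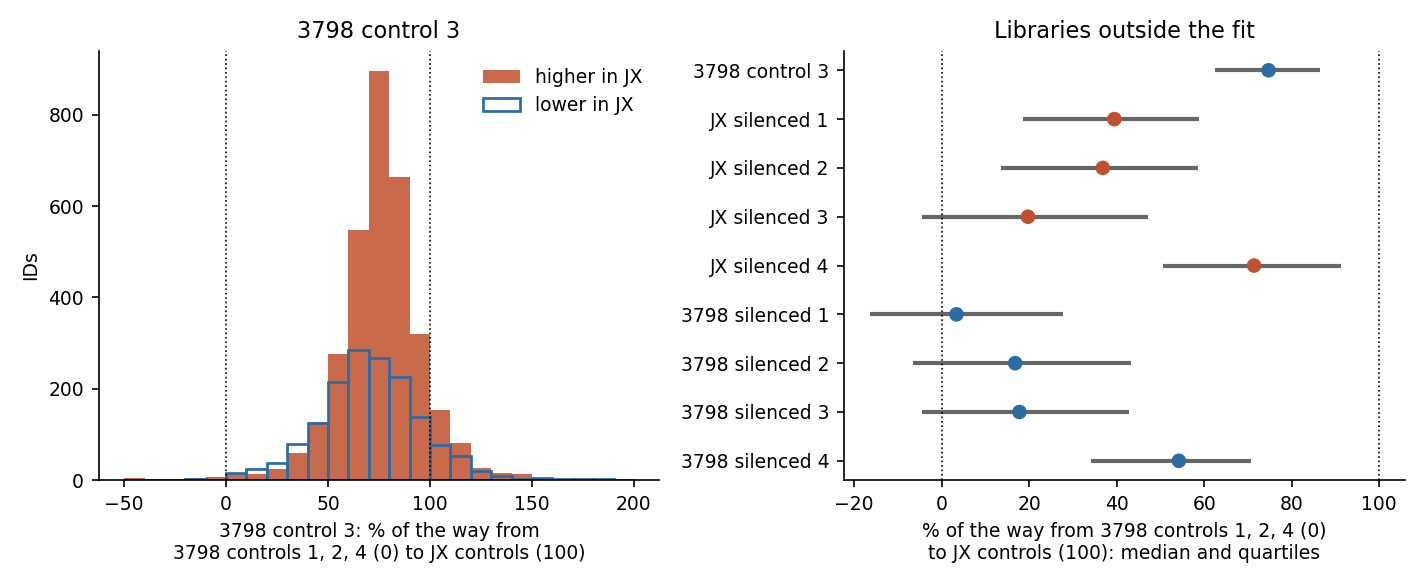
Place of libraries between 3798 controls 1, 2 and 4 (0%) and the JX controls (100%) on the log2(FPKM + 0.5) scale over 4872 IDs that differ at least 2-fold between those groups. Left, number of IDs by place of 3798 control 3 in steps of 10%, with IDs outside -50% to 200% not drawn; right, median (point) and quartiles (line) for 3798 control 3 and each silenced library, none of which entered that fit. The median of 3798 control 3 is 74.7%, and the 8 silenced libraries run from 3.41% to 71.4%.

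The IDs chosen in the controls were also read in the silenced libraries. Since they were chosen for their size or sign in the controls, a smaller value in libraries that did not choose them follows from the choice in part, and nothing about silencing is read from it. For the 2026 IDs at least 2-fold higher in JX controls over 8 libraries, the median log2 difference of JX from 3798 was 1.34 in controls and 0.34 in silenced libraries, and 1806 (89.1%) kept a positive sign. For the 949 at least 2-fold lower, the medians were -1.30 in controls and -0.25 in silenced libraries, and 759 (79.98%) kept a negative sign. Over all tested IDs, 68.2% of those higher and 56.9% of those lower in JX controls had the same sign in the silenced libraries. Whether the difference itself changed with silencing was not tested. Single IDs differed in this. Gh_Contig00435G000100 averaged 3.15 ± 0.942 FPKM in JX silenced and 3.03 ± 1.08 FPKM in 3798 silenced libraries (SD, n = 4). Gh_D09G100800 averaged 73.1 ± 64.8 FPKM in JX silenced and 61.0 ± 26.6 FPKM in 3798 silenced libraries (SD, n = 4), with 2.73 FPKM in JX silenced 4, so the order of its means was the reverse of that in the controls. Gh_A02G041300 kept its order, with 13.4 ± 4.37 FPKM in JX silenced and 20.9 ± 5.32 FPKM in 3798 silenced libraries, and so did Gh_D08G209200, with 22.7 ± 15.1 FPKM in JX silenced and 10.7 ± 7.06 FPKM in 3798 silenced libraries (SD, n = 4).

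Few IDs separated the strains in all 16 libraries. In 77 IDs (0.148%) every JX library was above every 3798 library, and in 89 (0.171%) every JX library was below. The lowest library of the higher strain was at most 1.21 times the highest of the other in the first set and at most 1.38 times in the second, so 0 IDs were apart by 2-fold or more. Of these, 66 of 77 and 80 of 89 were called over the 8 controls by limma, where 16.3% and 10.7% of all tested IDs were called in those directions. Separation of the controls is part of how these IDs were found, so nothing is read from that share.

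Abundant IDs were called more often. Among 4692 IDs with a mean under 1 FPKM, 10.5% were called over 8 libraries and 21.1% without 3798 control 3. The shares were 19.7% and 33.1% of 20447 IDs at 1 to 5 FPKM, 32.1% and 48.8% of 20819 at 5 to 20 FPKM, and 46.1% and 64.8% of 5532 at 20 to 100 FPKM. Among 446 IDs at 100 FPKM or more they were 56.7% and 66.8%. Calls at 20 to 100 FPKM numbered 1594 higher and 959 lower in JX over 8 libraries, or 1276 and 1237 with quantile normalization. That excess of higher over lower calls was seen with and without 3798 control 3 under each of the 3 scalings.

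The share of IDs called was similar over the chromosomes. Chromosome IDs of the A subgenome were called at 28.3% and those of the D subgenome at 28.6%, against 27.0% of all tested IDs, or 43.9% and 44.2% against 42.0% without 3798 control 3. By chromosome the share ran from 26.6% on A09 to 30.5% on D05 over 8 libraries, and from 42.4% on A04 to 46.0% on D07 without 3798 control 3. On each of the 26 chromosomes more IDs were called higher than lower in JX on the values as deposited. After quantile normalization this held for 23 chromosomes over 8 libraries and for 17 without 3798 control 3, with the reverse on 2 and on 9.

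IDs called newGene, which have no position in the ID, were called less often than tested IDs as a whole. Of 4937 tested, 13.8% were called over 8 libraries, 240 higher and 442 lower in JX, and 23.5% without 3798 control 3, 533 higher and 628 lower. Over 8 libraries this was 4.86% higher and 8.95% lower, against 16.3% and 10.7% of all tested IDs. Without 3798 control 3 it was 10.8% and 12.7%, against 25.1% and 16.9%. Calls in both directions were thus rarer than among all IDs, and the shortage was larger for higher calls. The excess of lower over higher calls at an adjusted p under 0.05 held under both other scalings with and without 3798 control 3. Over 8 libraries the calls were 222 higher and 539 lower by median-ratio scaling, and 207 and 578 by quantile normalization. At an adjusted p under 0.01 without 3798 control 3 the excess was not seen, with 5.75% called higher and 5.53% lower. Of 700 contig IDs, 23.4% were called over 8 libraries, 94 higher and 70 lower, a balance that turned with quantile normalization to 77 and 79. No test of these shares was made, since IDs are not independent replicates. IDs at low levels were called less often, and newGene IDs were not compared with other IDs of matched level.

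**Figure D5:**
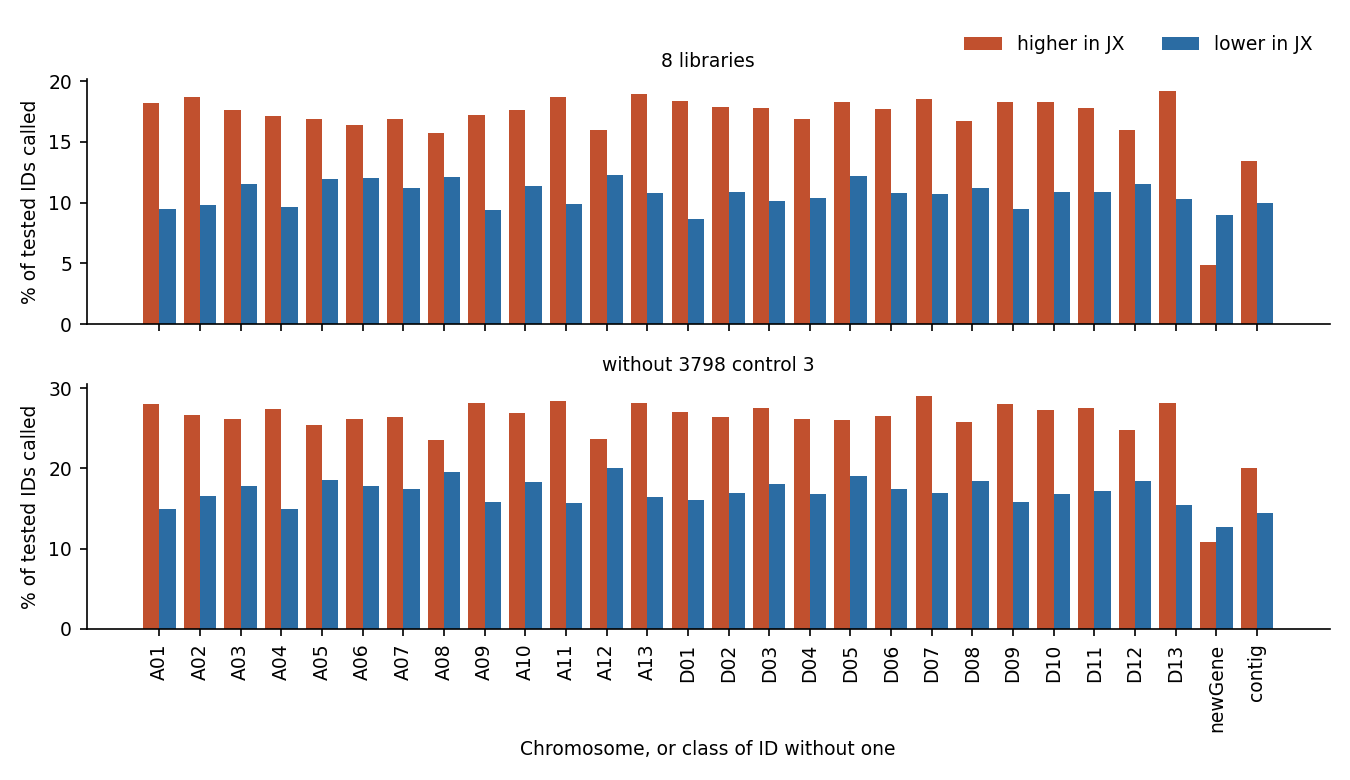
Percent of tested IDs called higher or lower in JX by limma at an adjusted p under 0.05, for each chromosome, for newGene and for contig IDs, with all 8 control libraries (top) and without 3798 control 3 (bottom). On the values as deposited every chromosome has more calls higher than lower in JX (17 of 26 after quantile normalization without 3798 control 3). Over 8 libraries newGene IDs have more lower (442, 8.95%) than higher (240, 4.86%) calls, against 10.7% and 16.3% of all tested IDs.

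Along the chromosomes the share of called IDs was followed in windows. In 913 windows of 50 consecutive tested IDs, ordered by the number in the ID on the assumption that it follows position, the share called ran from 12% to 48.0% with a median of 28.0%. Without 3798 control 3 it ran from 20% to 70% with a median of 44.0%. The window with the highest share in both cases was on chromosome D07, IDs numbered 211800 to 221400, with 24 of 50 called over 8 libraries (13 higher and 11 lower) and 35 of 50 without 3798 control 3. In the window after it, IDs 221500 to 228500, 18 of 50 were called over 8 libraries and 30 of 50 without 3798 control 3. No test of windows was made, and the first of these was chosen as the highest of 913, so nothing about D07 is read from its share. The lowest median log2 difference of a window was -0.26, on D03 at IDs 181200 to 190700, and the highest 0.39, on D13 at IDs 230600 to 237900, both without 3798 control 3. Neighbouring IDs were nearly unrelated: across 46273 pairs the Spearman correlation of their log2 differences was 0.044 over 8 libraries and 0.045 without 3798 control 3, and for IDs 10 apart it was -0.00041 and 0.00078. Among 3858 adjacent pairs with both IDs called over 8 libraries, 57.3% had the same direction, against 52.6% of 3759 pairs 10 apart. The shares without 3798 control 3 were 55.8% of 9065 adjacent pairs and 52.7% of 8990 pairs 10 apart. These pairs share libraries and depth, and overlapping or duplicated genes could share reads.

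The share of all FPKM that came from each subgenome and chromosome was compared as 1 value a library. D subgenome IDs held 48.2%, 47.7%, 48.2% and 48.0% in JX controls 1 to 4, against 47.1%, 47.3%, 47.5% and 47.6% in 3798 controls 1 to 4. The JX shares lay above those of 3798 without overlap, by 0.629 percentage points (exact two-sided permutation test, p = 0.029, adjusted p = 0.071 over 30 classes). The difference was 0.657 points without 3798 control 3 (exact permutation test, adjusted p = 0.078). A subgenome IDs held 46.8% ± 0.107 in JX and 47.0% ± 0.172 in 3798 (SD, n = 4; exact permutation test, adjusted p = 0.21). The largest differences by chromosome were 0.295 points on D08, with 3.97% ± 0.044 in JX and 3.68% ± 0.108 in 3798, and -0.260 points on A06, with 2.79% ± 0.010 in JX and 3.05% ± 0.125 in 3798 (SD, n = 4; exact permutation test, adjusted p = 0.071 for both). They were 0.349 points on D08 and -0.321 points on A06 without 3798 control 3 (exact permutation test, adjusted p = 0.078 for both). With 4 against 3 libraries there are too few splits for any class to pass 0.05, so nothing is read from those p-values. In all, 12 of the 30 classes did not overlap and reached 0.029, the smallest p that 4 against 4 libraries allow, and 0 passed the adjusted threshold of 0.05. IDs called newGene held 3.81% ± 0.167 in JX and 4.21% ± 0.207 in 3798 (SD, n = 4; exact permutation test, adjusted p = 0.086).

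Chromosomes of the same number in the A and D subgenomes mostly carry corresponding copies of genes. The difference in FPKM share had the same sign in 9 of 13 such pairs. Without the 10 most abundant IDs it was again 9, of which 8 were shared, and without 3798 control 3 it was 10, which included the 9. On A08 the share was 3.91% ± 0.053 in JX and 3.71% ± 0.068 in 3798 (SD, n = 4), higher in JX as on D08. On D06 it was 2.86% ± 0.012 in JX and 2.97% ± 0.078 in 3798 (SD, n = 4), lower in JX as on A06. Other pairs had opposite signs, with -0.102 points on A13 and 0.096 on D13, and -0.085 on A04 and 0.062 on D04. Signs of unrelated chromosomes would also often agree, and the count of pairs was not tested, so nothing is read from it. Shares of one library sum to a whole, so the chromosomes are not independent of each other.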

How the data were processed

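The authors deposited 1 table of FPKM for 70422 IDs in 16 libraries. The unit comes from the table's name and values. The sources used here do not name the aligner, counter, genome build, annotation or strandedness. Reads of near-identical A and D copies could have been split or dropped, and without strand, overlapping genes cannot be told apart. Columns were matched to samples by the code in each description, and 0 of 120 pairs of columns were identical. Relative depth is the most frequent ratio of values under 0.5 FPKM.

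IDs with at least 0.5 FPKM in 4 of the 8 controls were tested on log2(FPKM + 0.5) with limma 3.58.1 (R 4.3.3), trend and robust estimation, two-sided, Benjamini-Hochberg adjustment over 51936 IDs and a threshold of 0.05. The procedure was tested on simulated data. Shares per library were compared by exact permutation over 70 splits. Named IDs are the 2 with the smallest p in each direction whose libraries do not overlap, in each fit. The rule for switched IDs over 8 libraries named 0. Gene lists and markers need names, and 0 IDs matched the 99454 RefSeq genes of Gossypium_hirsutum_v2.1, so none was used. Members, lists and tests were chosen with earlier results of these data known. Alternatives were other pseudocounts, filters, scalings, libraries in the fit, library weights, a replicate block, no trend, a stricter threshold and each library left out. Shares and figures were made in Python 3.11.15 (scipy 1.17.1, matplotlib 3.10.9).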

Additional observations from a re-analysis of the deposited data

Results flagged for a closer look

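Of 100 groups of 4 values checked, 12 held 1 library far from the other 3, and 11 of the 12 were in 3798 control 3. Independent groups would give about 5% by chance. These groups share libraries, so no comparison with that share is made. All IDs flagged in 3798 control 3 were chosen without that library, so its distance there follows at least in part from the choice. It was at 37.0 FPKM for Gh_D08G209200, 129 FPKM for Gh_A09G105900, 15.02 FPKM for Gh_A05G248600, 8.76 FPKM for Gh_D01G082700, 5.26 FPKM for Gh_D03G181600 and 2.48 FPKM for Gh_A07G008900. Its score on the first principal component was 21.1. The median FPKM of its tested IDs was 5.24, and its share of FPKM was 3.81% on A08, 3.84% on D08 and 3.65% on D12. The remaining value was Gh_A09G106600 in JX control 1, at 1.20 FPKM, with the other JX controls at 3.15 to 3.48 FPKM.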

How the results depend on the processing

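Absolute depth is unknown, so counting error cannot be given, and 4 libraries a strain limit what a test can show. The count of 14014 called IDs moved to 22391 with library weights, in which 3798 control 3 had a weight of 0.241, and to 2975 with a minimum of 2-fold. With 1 library left out it ranged from 6359 to 21799. The 21799 calls without 3798 control 3 became 4872 with a minimum of 2-fold and 14197 at an adjusted p under 0.01, and no other alternative moved them by over 1.5 times. Most of the alternatives to that count were added after seeing the data. The choice of libraries or threshold moved the described shares. Without 3798 control 3, and at an adjusted p under 0.01 over 8 libraries, called IDs were 43.9% and 0.0131% of the A subgenome, 44.2% and 0% of the D subgenome, 45.1% and 0% of D05, 44.0% and 0% of A09, 23.5% and 0% of newGene IDs, 34.6% and 0.143% of contig IDs, and 70% and 0% of the window with the highest share. Switched IDs numbered 46 without 3798 control 3 and 3 with a ratio of 4-fold over 8 libraries. With both changes there were 397 on in JX and 138 on in 3798. Differences in FPKM share near 0 changed sign: with 1 library left out they ranged from -0.0803 to 0.0018 points on A05, from -0.0159 to 0.0139 on A07, from -0.0055 to 0.0646 on D05, from -0.0259 to 0.0207 on D11 and from -0.113 to 0.0081 for contig IDs. Without the 10 most abundant IDs the difference was -0.0198 on D05. On D10, where it was -0.222 with all IDs and so not near 0, it became 0.0018. The 12 named IDs kept direction and call in all 220 values listed under an alternative, of which those for a minimum of 2-fold repeat the main fit. These IDs were chosen for small p or large gaps, so this follows in part from the choice. With the replicate number as a block, 11089 IDs were called over 8 libraries and 15765 without 3798 control 3. Deviations of same-numbered JX and 3798 control libraries correlated at -0.033, 0.014, 0.11 and -0.097, and those of differently numbered ones at -0.12 to 0.15. Whether libraries of the same number belong together was not tested. The causes of these changes were not tested.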
